A study of Mus musculus with 9 samples.

Results

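RANK, M-CSF and the transcription factors around them decide whether a myeloid precursor becomes an osteoclast, and their messages were followed here in whole tibia. The 10 genes were chosen by symbol as the RANKL, RANK and OPG system (Tnfsf11, Tnfrsf11a, Tnfrsf11b, Lgr4), the M-CSF receptor system (Csf1, Csf1r, Il34) and the fate regulators Nfatc1, Mitf and Irf8. All 10 were among the 18272 genes of the deposited table, and 9 of them were among the 13960 genes that passed a minimum of 10 counts in at least 3 libraries. Tnfsf11 did not pass.

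The study asked how streptozotocin-induced type 1 diabetes and the GLP-1 receptor agonist liraglutide change bone in female C57BL/6J mice. Mice bought at 10 to 11 weeks of age received a single intraperitoneal streptozotocin injection, which destroys the insulin-producing beta cells, or the citrate vehicle, and 2 weeks later began treatment. The NGT group (normal glucose tolerance, 3 mice) had vehicle and saline, the T1D group (3 mice) had streptozotocin and saline, and the Lira group (3 mice) had streptozotocin and liraglutide at 0.6 mg/kg daily. Treatment ran for 8 weeks by the study's methods, and the label of Lira mouse 3 gives 9 weeks. One tibia of each mouse, stripped of muscle and connective tissue and snap frozen, gave 1 RNA-seq library. Every Lira mouse was diabetic, so the design holds no liraglutide group without streptozotocin, and streptozotocin cannot be told apart from the diabetes it causes. The p-values below measure the spread between these mice.

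RANKL, made in bone by osteocytes, osteoblasts and hypertrophic chondrocytes, binds RANK on myeloid precursors and sets off NF-kB, MAP kinase and calcium signals that end in the self-amplifying induction of Nfatc1, the master transcription factor of osteoclasts. OPG is a soluble decoy that captures RANKL, and LGR4 is a second RANKL receptor that opposes RANK signalling besides its role as a receptor for R-spondins. M-CSF and IL-34 both bind the M-CSF receptor, which keeps precursors alive, makes them proliferate and brings up RANK. Mitf works with PU.1 on osteoclast genes, whereas Irf8 holds precursors in the macrophage and dendritic cell state and restrains Nfatc1.

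Before the results, the libraries themselves need describing. Library totals ran from 13086373 to 16528394 counts. The 10 skeletal muscle markers took 8.61% to 23.1% of scaled counts although the bones had been stripped, and T1D mouse 1 had the lowest share. T1D mouse 1 also had a summed level of the 8 macrophage markers of 866 CPM (counts scaled to library depth, with the TMM factors of edgeR), against 34.7 to 104 CPM in the other 8 mice, and 5580 CPM of the 8 osteoblast markers against 206 to 1390 CPM. NGT mouse 2 had no counts of Bglap and Sp7 (osteoblast), Sost and Mepe (osteocyte) or Dcstamp (osteoclast fusion), and the osteocyte list summed to only 0.779 to 16.5 CPM over all mice. Among the marker lists the neutrophil list had the widest relative range, from 3.87 to 4960 CPM. Values of the 10 genes are therefore given for each mouse, and their leading results also without T1D mouse 1. Other single genes are given as group means or fitted differences only, which a single mouse can carry. In whole bone, fewer cells of a type and less RNA per cell cannot be told apart.

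Promoter sequence is shown for 4 of the genes because the receptor and ligand, and the M-CSF gene and Irf8, differ in the core and inducible elements they carry. RefSeq promoter entries matched 6 of the 10 genes. Each line holds the 250 bases before the start of transcription, 5′ to 3′ on the gene's own strand, from the RefSeq annotation of GRCm38.p6, a later build than the mm9 of the deposited table. Capitals mark every match, on either strand, to TATAAA (the TATA box), GGACTTTCC (an NF-kB site), TTCNNNGAA (the GAS element bound by STAT proteins), TGANTCA (AP-1), CATGTG (the M-box bound by MITF) and GAGGAA (a PU.1 core).
Tnfrsf11a, chr1:105780473-105780722, plus strand: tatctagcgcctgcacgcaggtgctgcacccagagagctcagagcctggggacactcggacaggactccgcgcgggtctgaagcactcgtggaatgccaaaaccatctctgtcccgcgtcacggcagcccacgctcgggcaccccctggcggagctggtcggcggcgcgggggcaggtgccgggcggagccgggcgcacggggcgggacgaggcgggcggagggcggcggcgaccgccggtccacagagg
Tnfsf11, chr14:78308044-78308293, minus strand: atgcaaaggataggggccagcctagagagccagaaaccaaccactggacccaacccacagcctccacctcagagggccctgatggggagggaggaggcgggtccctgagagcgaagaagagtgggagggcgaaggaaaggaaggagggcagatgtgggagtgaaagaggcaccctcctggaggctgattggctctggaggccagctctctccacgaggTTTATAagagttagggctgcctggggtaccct
Csf1, chr3:107760470-107760719, minus strand: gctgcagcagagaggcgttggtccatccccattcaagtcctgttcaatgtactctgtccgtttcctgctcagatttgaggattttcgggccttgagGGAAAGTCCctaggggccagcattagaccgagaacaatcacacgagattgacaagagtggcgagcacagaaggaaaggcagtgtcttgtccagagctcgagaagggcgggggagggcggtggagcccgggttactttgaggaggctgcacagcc
Irf8, chr8:120736108-120736357, plus strand: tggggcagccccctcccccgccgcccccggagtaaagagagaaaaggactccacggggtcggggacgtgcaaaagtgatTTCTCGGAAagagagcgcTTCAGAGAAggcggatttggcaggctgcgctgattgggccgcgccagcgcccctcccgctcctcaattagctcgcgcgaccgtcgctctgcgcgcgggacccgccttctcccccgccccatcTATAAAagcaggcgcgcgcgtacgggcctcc

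The Tnfrsf11a window had 73.6% G and C and 31 CpG dinucleotides, against medians of 52.4% and 6 over all 32851 promoters of the table, and held none of the 6 motifs. The Tnfsf11 window had 4 CpG dinucleotides and a TATA box on the reverse strand from 32 to 27 bases before the start. Irf8, which has 2 annotated starts, carried a forward TATA box from 31 to 26 bases before the first of them, and TATAAA was present in 12.4% of all promoters. Irf8 also held 2 GAS elements, which begin 171 and 153 bases before the start, and 7.02% of promoters held at least 1. The Csf1 window carried an NF-kB site on the reverse strand from 154 to 146 bases before the start, a string found in 0.283% of promoters. The AP-1, M-box and PU.1 strings, present in 6.75%, 12.3% and 23.3% of promoters, were in none of these 4 windows. A match describes letters in these windows and was not tested as a binding site.

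Per unit of gene length, the transcription factors and the receptors of M-CSF and R-spondin were far above RANKL, RANK and OPG. In deposited FPKM (fragments scaled to transcript length and library depth), Nfatc1 had the highest mean over the 9 mice, 15.9 ± 2.29 (SD), above 80.9% of all genes in the table. Csf1r followed at 8.67 ± 10.4, Lgr4 at 8.05 ± 1.15, Irf8 at 4.97 ± 4.13, Mitf at 4.94 ± 0.842 and Csf1 at 4.64 ± 2.67. Il34, the second ligand of the M-CSF receptor, had 2.41 ± 0.715 FPKM. Lowest of the 10 were Tnfrsf11b (OPG) at 0.972 ± 0.926, Tnfrsf11a (RANK) at 0.483 ± 0.541 and Tnfsf11 (RANKL) at 0.253 ± 0.289 FPKM. Neighbours in the middle of this order were not separated, since Csf1r lay above Lgr4 in 3 of 9 mice, Irf8 above Mitf in 3 of 9 and Mitf above Csf1 in 6 of 9. At the ends the order was steadier, with Nfatc1 above Csf1r in 8 of 9 mice and Il34 above Tnfrsf11b in 9 of 9. OPG was above RANK, and RANK above RANKL, each in 8 of 9 mice.

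**Figure D1:**
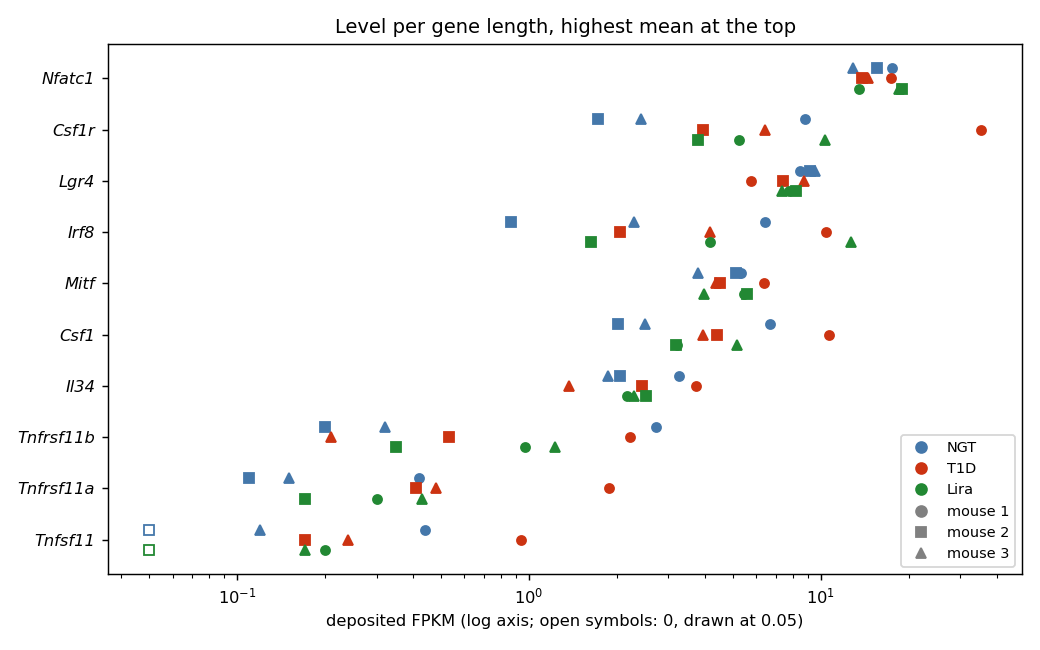
Deposited FPKM of the 10 genes in the 9 tibia libraries on a log axis, with genes ordered by their mean, colour for the group and symbol for the mouse number. Nfatc1 lies between 12.91 and 18.96 FPKM in every mouse, whereas Csf1r runs from 1.72 to 35.34, and the 2 open symbols are libraries in which Tnfsf11 is listed at 0.

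The genes fell apart by how much they varied from mouse to mouse. The highest CPM was 14.7 times the lowest for Csf1r, 12.4 times for Tnfrsf11a, 11.7 times for Irf8 and 10.4 times for Tnfrsf11b. It was only 1.51 times for Nfatc1, 1.74 times for Mitf, 1.91 times for Il34 and 2.36 times for Lgr4, with Csf1 between them at 3.35 times. The biological coefficient of variation within groups, estimated by edgeR, followed the same division, from 0.821 for Tnfrsf11b, 0.669 for Irf8, 0.625 for Csf1r and 0.556 for Tnfrsf11a to 0.196 for Nfatc1, beside a common value of 0.433 over all genes.

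The first comparison, T1D against NGT, asks what diabetes did to these messages. RANK was the gene that stood apart. Tnfrsf11a, the RANK receptor gene (gene ID 21934), had 1.78, 0.619 and 0.792 CPM in NGT mice 1, 2 and 3, 7.67, 2.1 and 2.67 CPM in the T1D mice and 1.64, 0.935 and 1.95 CPM in the Lira mice. Every T1D mouse lay above every NGT mouse, and T1D mouse 1 lay far above the other two. The group means were 1.06 ± 0.625 in NGT and 4.14 ± 3.06 CPM in T1D (SD, n = 3 each), a log2 fold change of 1.95 with a standard error of 0.64. In edgeR's quasi-likelihood test the unadjusted p was 0.0142 and the Benjamini-Hochberg adjusted p over all 13960 genes was 0.977, so the difference did not pass. Without T1D mouse 1 the log2 fold change was 1.15 and the unadjusted p in edgeR's test 0.0742.

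Counts behind these levels were low, from 8.43 to 27.59 estimated reads per NGT mouse and 32.04 to 141.38 per T1D mouse. Tnfrsf11a was 1 of the 9 tested genes whose groups did not overlap with T1D higher, and 3.52% of all genes tested did the same, whereas 0 of the 9 lay wholly lower (5.08% of all genes). The ratio of group means was over 2 with T1D higher for 2 of the 9, Tnfrsf11a and Csf1r (5.39%), and with T1D lower for 0 (0.845%). It was likewise the sole one with T1D above both other groups, which held for 0.989% of all genes. None of the 9 was called at an adjusted p under 0.05 and a fold over 2, and 0.0% of all genes were. At an unadjusted p under 0.05, edgeR gave 1 of the 9 higher in T1D (2.36% of all genes) and 0 lower (1.6%), and DESeq2 gave 2 (Tnfrsf11a and Csf1r), beside 697 of the 13960 genes, with 0 calls over all genes and no adjusted p for any of the 9.

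On the M-CSF side no difference passed the test, and that of the receptor gene was the largest. Csf1r (gene ID 12978), the M-CSF receptor gene on monocytes, macrophages and osteoclast precursors, had 27.3, 7.19 and 10.1 CPM in the NGT mice, 106, 14.9 and 26.5 CPM in the T1D mice and 21.6, 15.6 and 34.3 CPM in the Lira mice. T1D mouse 1 had the highest level by far, and T1D mice 2 and 3 lay below NGT mouse 1, so the groups overlapped. The log2 fold change of T1D against NGT was 1.72 ± 0.77 (standard error), with an unadjusted p of 0.0537 and an adjusted p of 0.977 in edgeR's quasi-likelihood test, and it was 0.47 without T1D mouse 1.

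Of the 8 macrophage markers, 7 were higher in T1D than NGT, as Csf1r was. Of all 8, 5 had an unadjusted edgeR p under 0.05 with T1D higher (2.36% of all genes) and 0 passed after adjustment, and C1qa, the complement gene with the highest level among them, averaged 11.6 CPM in NGT and 87 CPM in T1D. Their median log2 difference was 2.76, beside 0.02 over all genes, and the summed level was 104, 34.7 and 45.9 CPM in NGT mice 1, 2 and 3 and 866, 74.6 and 85.6 CPM in the T1D mice. T1D mice 2 and 3 thus lay within the NGT range, and T1D mouse 1 alone lay above it. The part of macrophage content in the Csf1r difference was not tested.

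Csf1, the M-CSF gene (gene ID 12977), had 22.2, 9.28 and 11.2 CPM in NGT mice, 31.1, 16.5 and 17.9 CPM in T1D mice and 13.8, 14.3 and 19.1 CPM in Lira mice. Mouse 1 was highest in both NGT and T1D, and the groups overlapped. The log2 fold change of T1D against NGT was 0.62 ± 0.37 (edgeR, adjusted p 0.977), and 0.27 without T1D mouse 1. Il34, the ligand made mainly by keratinocytes and neurons (gene ID 76527), had 4.7, 4.1 and 3.72 CPM in NGT, 5.22, 4.26 and 2.73 CPM in T1D and 4.14, 4.83 and 3.44 CPM in Lira. All groups overlapped around the same level, with a log2 difference of -0.04 ± 0.31.

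**Figure D2:**
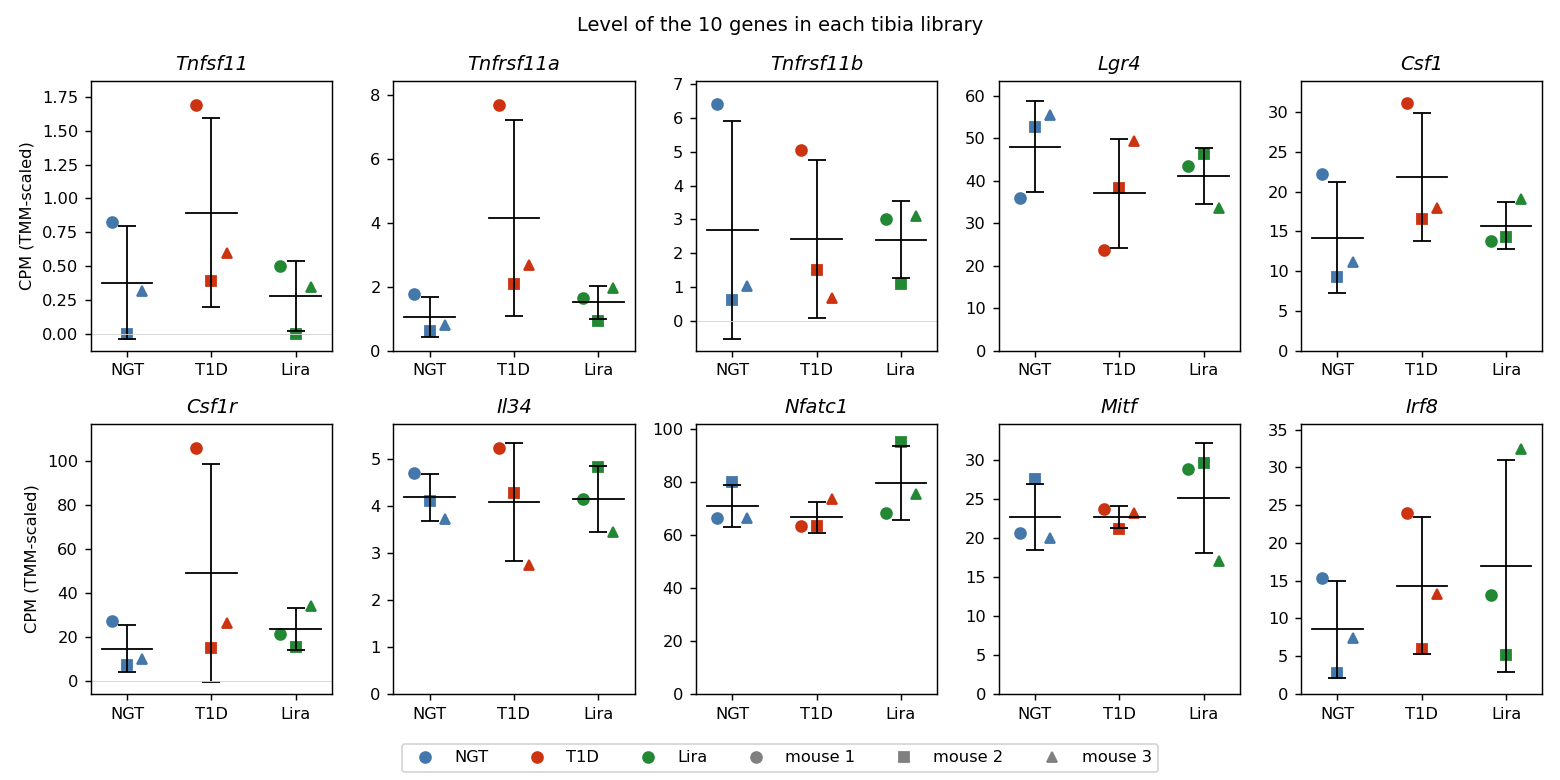
TMM-scaled CPM of each gene by group, 1 symbol for each mouse, with the group mean (horizontal line) and SD (bar) of 3 mice. The 3 T1D mice lie above all others for Tnfrsf11a alone, T1D mouse 1 reaches 106 CPM of Csf1r, and the groups share one range for Nfatc1, Mitf and Il34.

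RANKL itself was near the limit of this depth. Tnfsf11 (gene ID 21943) had 13, 0 and 4 counts in NGT mice 1, 2 and 3, 31, 6 and 9 in the T1D mice and 7, 0 and 6 in the Lira mice. A library with 0 counts still allows up to 3, which is 0.232 CPM in NGT mouse 2 and 0.234 CPM in Lira mouse 2, counting error alone. Scaled to depth the levels were 0.825, 0 and 0.317 CPM in NGT, 1.69, 0.393 and 0.6 CPM in T1D and 0.5, 0 and 0.344 CPM in Lira, and all 3 groups overlapped. Fitted without the filter on low counts, the log2 fold change was 1.19 ± 1.16 for T1D against NGT (edgeR, adjusted p 0.935) and -1.62 ± 1.19 for Lira against T1D (adjusted p 0.938).

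OPG, the decoy of RANKL, had the highest variation within groups of the 9 tested genes. Tnfrsf11b (gene ID 18383) had 6.41, 0.619 and 1.03 CPM in NGT mice, 5.06, 1.51 and 0.667 CPM in T1D mice and 3, 1.09 and 3.1 CPM in Lira mice. One NGT and one T1D mouse, both numbered 1, were high and the rest of those groups low, so nothing separated the groups. The log2 fold change was -0.16 ± 0.98 for T1D against NGT, and it turned to 1.55 without NGT mouse 1.

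The balance of RANKL to OPG was taken within each mouse as the log2 ratio of CPM after adding 0.5 CPM to both. It was -2.38, -1.16 and -0.9 in NGT mice, -1.35, -1.17 and -0.08 in T1D mice and -1.81, -1.67 and -2.09 in Lira mice. T1D mouse 3 came closest to parity, and the Lira mice lay below all T1D mice. CPM takes no account of gene length, and per length, in FPKM, OPG was above RANKL in 8 of 9 mice, with 0.24 FPKM of Tnfsf11 and 0.21 of Tnfrsf11b in T1D mouse 3. Means were -1.48 ± 0.79, -0.87 ± 0.68 and -1.86 ± 0.22 (SD, n = 3 each). The difference was 0.62 for T1D against NGT (two-sided exact permutation test, p = 0.6) and -0.37 for Lira against NGT (p = 0.5). For Lira against T1D it was -0.99 with p = 0.1, the smallest p that 3 against 3 allows in the exact permutation test. The 2 mice without RANKL counts, NGT mouse 2 and Lira mouse 2, take their value from the added 0.5 CPM.

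Lgr4 (gene ID 107515) ran opposite to RANK within the pairs described below but was not separated between groups. It had 35.9, 52.7 and 55.6 CPM in NGT, 23.6, 38.2 and 49.3 CPM in T1D and 43.4, 46.3 and 33.6 CPM in Lira. Mouse 1 was lowest in both NGT and T1D, and the ranges overlapped. The log2 fold change of T1D against NGT was -0.38 ± 0.29 (edgeR, adjusted p 0.977), and -0.14 without T1D mouse 1.

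Among the fate regulators, the osteoclast-driving factors showed small differences. Nfatc1 (gene ID 18018) had 66.4, 80 and 66.4 CPM in NGT, 63.4, 63.2 and 73.5 CPM in T1D and 68.2, 95.2 and 75.3 CPM in Lira. Lira mouse 2 was highest, and T1D mouse 1, the highest in RANK and Csf1r, was among the lowest in CPM, though in FPKM it was among the higher, at 17.42 in a range of 12.91 to 18.96. The log2 difference of T1D against NGT was -0.09 ± 0.17. Mitf (gene ID 17342) had 20.6, 27.5 and 19.9 CPM in NGT, 23.7, 21.1 and 23.1 CPM in T1D and 28.8, 29.5 and 17 CPM in Lira, with full overlap and group means of 22.7 CPM in both NGT and T1D. Both genes are also used by skeletal muscle, whose markers were abundant here, and a whole-gene count does not separate the isoforms of Mitf.

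Irf8, the brake on osteoclast fate (gene ID 15900), had 15.4, 2.78 and 7.44 CPM in NGT, 23.9, 5.89 and 13.2 CPM in T1D and 13.1, 5.14 and 32.5 CPM in Lira. Mouse 2 was lowest in each group, the highest mouse was Lira mouse 3, and all groups overlapped. The log2 fold change of T1D against NGT was 0.75 ± 0.8 (edgeR, adjusted p 0.981), and it was 0.16 without T1D mouse 1, 0.33 without NGT mouse 2 and 1.49 without NGT mouse 1. Blood cell markers were at their extremes in some of the same mice. The 8 neutrophil markers summed to 3.87 CPM in NGT mouse 2 and 4960 CPM in Lira mouse 3, the 7 erythroid markers to 292 and 22100 CPM in the same mice, and both lists were lowest in mouse 2 of each group. In T1D, however, mouse 1 had more Irf8 than mouse 3 but less of both lists (1220 against 1420 CPM and 1460 against 13900 CPM). Their part in the Irf8 values was not tested.

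**Figure D3:**
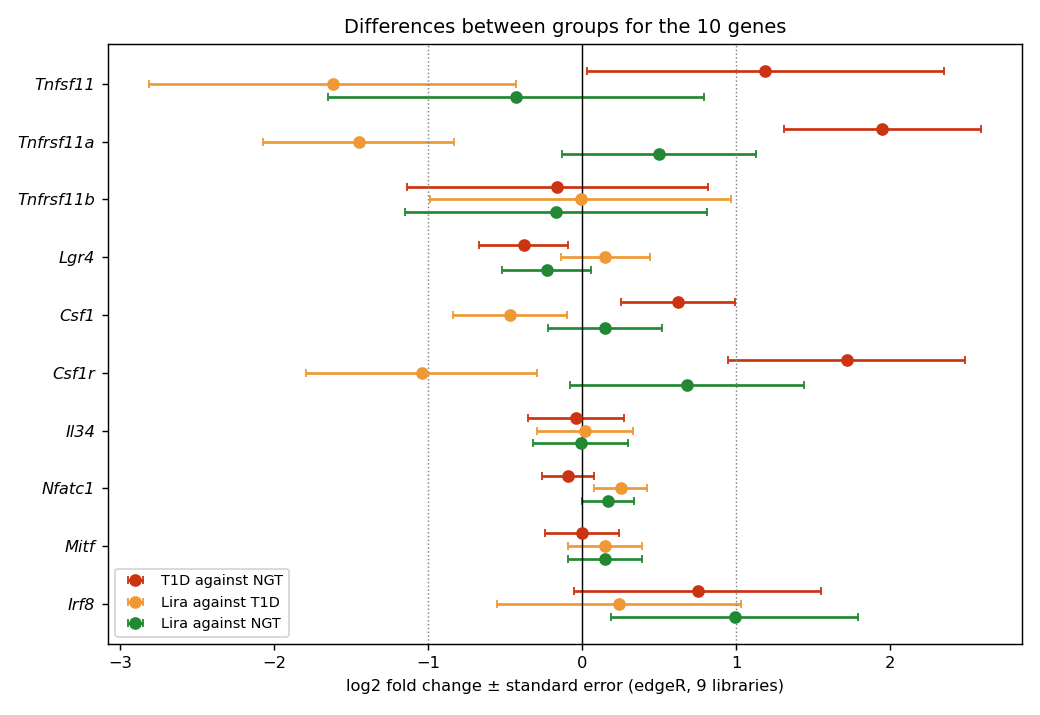
Log2 fold change with its standard error for each gene in the 3 comparisons, from the edgeR fit over 9 libraries (for Tnfsf11, the fit without the count filter). Tnfrsf11a at 1.95 and Csf1r at 1.72 are the furthest from 0 for T1D against NGT, with values of -1.45 and -1.04 for Lira against T1D, and dotted lines mark a 2-fold difference.

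Mice of the NGT and T1D groups that carried the same number resembled each other across all genes, with correlations of their deviations from the group means of 0.599, 0.641 and 0.284. Unlike numbers could also be alike, with 0.213 for NGT mouse 3 and T1D mouse 2 and 0.778 for NGT mouse 1 and Lira mouse 3, the highest of all. All 3 NGT and T1D pairs being over 0.1, the comparison was also read within numbers. Tnfrsf11a was 4.31, 3.39 and 3.37 times higher in the T1D mouse of pairs 1, 2 and 3, a mean log2 ratio of 1.87 with an SD of 0.2. These pairs were accepted for their likeness in the same data. A small spread of pair ratios, or a small p with the pairs as a block, is therefore no separate support. Csf1r was 3.87, 2.07 and 2.62 times higher, Irf8 1.56, 2.12 and 1.77 times and Csf1 1.4, 1.78 and 1.6 times. Tnfsf11, after adding 0.5 CPM to both mice, was 1.65, 1.79 and 1.35 times higher. Lgr4 went the other way in each pair, at 0.657, 0.724 and 0.887 times the NGT level. The share of all genes lower in all 3 pairs was not computed. Nfatc1, at 0.955, 0.79 and 1.11 times, and Mitf, at 1.15, 0.768 and 1.16 times, had no common direction. Tissue content differed within the same pairs. From NGT to T1D the osteoclast markers summed to 282 and 502, 105 and 191, and 160 and 396 CPM in pairs 1, 2 and 3, the macrophage markers were also higher in T1D in each pair, and the muscle share was lower (11.6% and 8.61%, 21% and 17.7%, 23.1% and 22.4%). The part of these shifts in the ratios was not tested.

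Of the 9 tested genes, 4 were higher in all 3 pairs, beside 19.2% of all genes, and 2 of them (Tnfrsf11a and Csf1r) by over 2 times in each pair, beside 0.946% of all genes. An exact sign-flip test over 3 pairs cannot give a p under 0.25, which is its value for Tnfrsf11a, Csf1r, Irf8, Csf1, Tnfsf11 and Lgr4 alike. With the pair number as a block and those 6 libraries alone, edgeR's quasi-likelihood test gave an unadjusted p of 0.00193 for Tnfrsf11a and 0.000603 for Csf1r, and 5 of the 9 genes (also Csf1, Lgr4 and Irf8) had an unadjusted p under 0.05. In that fit 1931 of 13625 genes had an unadjusted p under 0.05, both adjusted p-values were 0.229 (0.229 to 1 over all alternatives with an adjusted p), and 0 of the 9 genes passed.

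**Figure D4:**
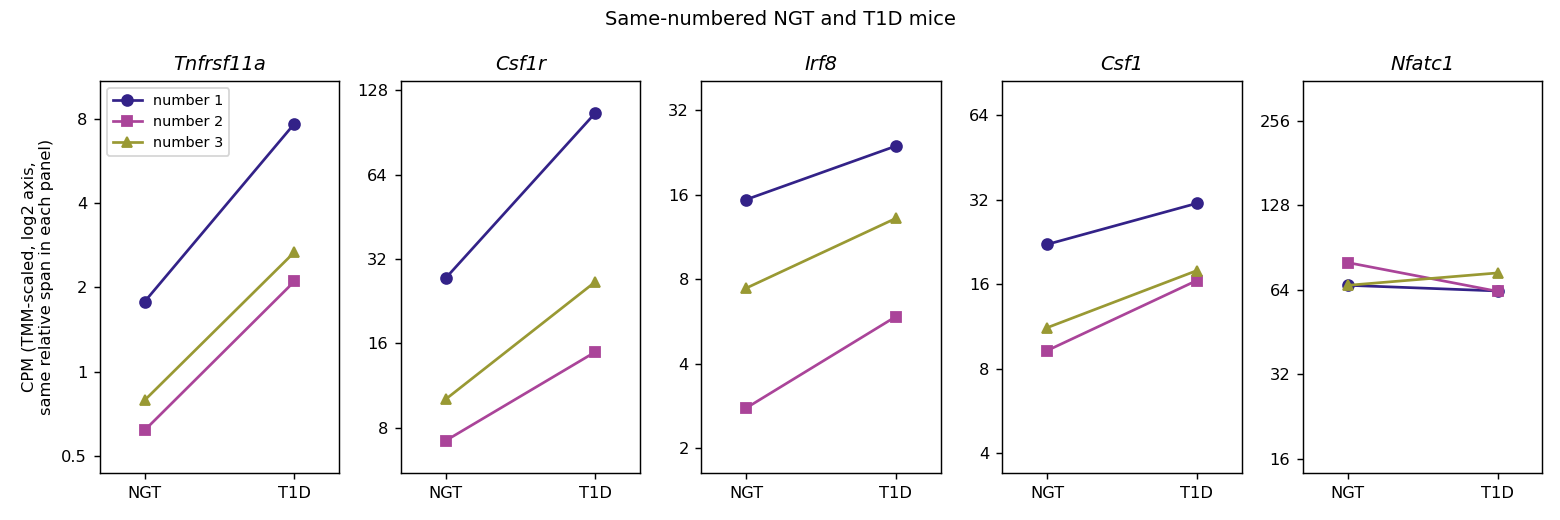
CPM on a log2 axis for 5 genes in NGT and T1D mice joined by their number, each panel spanning the same relative range. The 3 lines of Tnfrsf11a, Csf1r, Irf8 and Csf1 all end higher in T1D while Nfatc1 lies between 63.2 and 80 CPM.

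The second comparison, Lira against T1D, asks what liraglutide did in diabetic mice, and it uses the same 3 T1D libraries, so its values are not independent of the first. Tnfrsf11a was again the sole gene of the 9 whose groups did not overlap, with all Lira mice (0.935 to 1.95 CPM) below all T1D mice (2.1 to 7.67 CPM), which 3.4% of all genes also did. None of the 9 lay wholly higher in Lira (3.74%), and the Lira mean was under 0.5 of the T1D mean for 2, Tnfrsf11a and Csf1r (4.46%), and over 2 times it for 0 (2.79%). The log2 fold change was -1.45 ± 0.62, with an unadjusted p of 0.0458 and an adjusted p of 0.978 in edgeR's quasi-likelihood test, and -0.65 without T1D mouse 1. That unadjusted p was above 0.05 under several alternatives (edgeR 0.0689 with library-size scaling and 0.0513 with the 2 groups alone, 0.0533 with these and the block, limma 0.0906). It was also above 0.05 without T1D mouse 1 (edgeR 0.274), without NGT mouse 3 (0.0581) and without any single Lira mouse (0.056 to 0.128). The narrowest gap was between Lira mouse 3 at 1.95 and T1D mouse 2 at 2.1 CPM. Csf1r had a log2 difference of -1.04 ± 0.75 (edgeR, adjusted p 0.978), which changed sign to 0.2 without T1D mouse 1.

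The other 7 tested genes showed smaller differences, none past the test, and Tnfsf11 is given above. Csf1 had a log2 difference of -0.47 ± 0.37 (-0.13 without T1D mouse 1), Nfatc1 0.25 ± 0.17, Irf8 0.24 ± 0.79, Lgr4 0.15 ± 0.29 and Mitf 0.15 ± 0.24. Tnfrsf11b at -0.01 and Il34 at 0.02 were near 0. None of the 9 was called by edgeR, as were 0.0% of all genes, and at an unadjusted p under 0.05 the count was 1 lower (1.78% of all genes) and 0 higher (1.55%). DESeq2 also gave 1 of the 9, beside 620 of the 13960 genes. The 8 macrophage markers had a median log2 difference of -2 (0.04 over all genes), the 8 osteoblast markers -1.28 and the 12 tested osteoclast markers -0.42. In the other direction, all 6 B cell markers (median 1.78), all 8 neutrophil markers (1.08) and all 7 erythroid markers (0.84) were higher in Lira than T1D, with 0 called. Single mice carried these differences. T1D mouse 1 stood above all other mice in macrophage and osteoblast markers, and T1D mice 2 and 3 (74.6 and 85.6 CPM, and 704 and 695 CPM) lay within the range of the Lira mice (74.2, 79.4 and 103 CPM, and 872, 418 and 1210 CPM). Lira mouse 3 stood above all other mice in the 3 blood cell lists, with 180, 4960 and 22100 CPM, whereas Lira mice 1 and 2 had 27.5 and 4.44 CPM of B cell markers against 18.9 to 23.3 CPM in T1D. The part of these lists in the values of the 9 genes was not tested.

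The third comparison, Lira against NGT, asks how far treated diabetic mice stood from healthy ones. No group of the 9 genes was free of overlap with the other, where 2.49% of all genes lay wholly higher and 1.78% wholly lower in Lira. Tnfrsf11a differed by 0.5 ± 0.63 on the log2 scale, Csf1r by 0.68 ± 0.76, Irf8 by 0.99 ± 0.8 and Csf1 by 0.15 ± 0.37. Leaving out single mice, Tnfrsf11a ran from 0.23 (without NGT mouse 2) to 1.09 (without NGT mouse 1) and Csf1r from 0.32 (without Lira mouse 3) to 1.46 (without NGT mouse 1). Without Lira mouse 3, the highest in Irf8, that gene's difference was 0.09. Every adjusted p of the 9 genes was 0.999 in edgeR's test, 0 were called (0.0% of all genes), and 0 had an unadjusted p under 0.05 by edgeR or DESeq2, where edgeR gave 0.487% of all genes higher and 0.294% lower. A test of any difference among the 3 groups gave Tnfrsf11a an unadjusted p of 0.0262 and an adjusted p of 0.994 (edgeR), and 2.41% of all genes had an unadjusted p under 0.05.

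Seen across the 9 mice, several of these genes followed marker lists of bone or blood cells. A level for each list was the mean log2(CPM + 1) of its genes that passed the count filter. These were 12 of 14 osteoclast and 4 of 6 chondrocyte markers. In all, 15 gene and list relations were computed. Csf1r followed the macrophage list, with Pearson's r of 0.96 (permutation p adjusted over the 15 relations 4.13e-05, from the smallest p the exact test can give) and Spearman's rho of 1 (permutation p 5.51e-06), and r was 0.94 after leaving out the 2 mice farthest from the median and 0.96 within groups. Csf1r also followed the osteoclast list (r 0.84, adjusted permutation p 0.0138; rho 0.93, permutation p 0.00075; r 0.88 without the 2 farthest mice and 0.78 within groups). Tnfrsf11a followed the same osteoclast list with r of 0.79 (adjusted permutation p 0.0167) and rho of 0.85 (permutation p 0.00607), and with 0.74 without the 2 farthest mice and 0.73 within groups. The osteoclast list itself averaged 3 ± 0.84 in NGT, 3.94 ± 0.59 in T1D and 3.43 ± 0.93 in Lira, and of its 12 tested genes 9 were higher in T1D than NGT, with 0 called. Of the 12, 10 passed the filter on the NGT and T1D libraries alone. A low gene can pass through the group where it is high, which can add to the count of 9. Acp5, the acid phosphatase of osteoclasts and the list's highest gene in FPKM, averaged 17, 75.3 and 33.7 CPM. Ostm1, a subunit of the chloride channel that osteoclasts need, named after its values were seen, went the other way at 38.1, 26.8 and 34.7 CPM and had the lowest p of the list (edgeR, log2 difference -0.51 ± 0.14, unadjusted p 0.00651, adjusted p 0.977). Whether Tnfrsf11a differed beyond osteoclast content was not tested.

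RANKL and OPG followed the osteoblast list, and RANKL, the one of the pair compared with it, the chondrocyte list. All 8 osteoblast markers were higher in T1D than NGT with a median log2 difference of 1.04 and 0 called, and Col1a1, the collagen gene with the highest level among them, averaged 516 CPM in NGT, 1290 in T1D and 408 in Lira. T1D mouse 1 carried this difference, since the list summed to 5580, 704 and 695 CPM in T1D mice 1, 2 and 3 and to 1390, 206 and 1330 CPM in the NGT mice. Tnfsf11 had r of 0.88 with the osteoblast markers (adjusted permutation p 0.0138; rho 0.69, permutation p 0.0448), 0.68 without the 2 farthest mice and 0.88 within groups. With the chondrocyte markers it had r of 0.83 (adjusted permutation p 0.0147; rho 0.78, permutation p 0.0182), 0.75 without the 2 farthest and 0.94 within groups. Tnfrsf11b had r of 0.72 with the osteoblast list (adjusted permutation p 0.0477; rho 0.85, permutation p 0.00607), falling to 0.54 without the 2 farthest mice, with 0.79 within groups. Lgr4 ran against the same list with r of -0.73 (adjusted permutation p 0.0477; rho -0.7, permutation p 0.0433) and -0.71 within groups, but r was -0.33 without the 2 farthest mice, so the relation rested on NGT mouse 2 and T1D mouse 1. The same 2 mice were the farthest for Tnfsf11 and Tnfrsf11b with the osteoblast list.

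Irf8 followed the B cell markers, r 0.87 (adjusted permutation p 0.0138; rho 0.82, permutation p 0.0108), 0.66 without the 2 farthest and 0.89 within groups. It followed the macrophage markers at r 0.69 (adjusted permutation p 0.0477; rho 0.92, permutation p 0.00131), 0.68 without the 2 farthest and 0.69 within groups. Irf8 is a B cell and dendritic cell gene as well as a myeloid one, and Lira mouse 3, the highest in Irf8, had 180 CPM of B cell markers against 0.619 to 58.8 CPM in the other mice. Cd79a, the B cell receptor component with the highest level in that list, averaged 10.4 CPM in NGT, 8.78 in T1D and 34 in Lira, and the part of B cell content in the Irf8 values was not tested. For Nfatc1, r was -0.57 with the osteoclast list and 0.51 with the muscle list, and for Mitf -0.55 and 0.46, none past the threshold (adjusted permutation p 0.165, 0.202, 0.178 and 0.255). Csf1 with the endothelial list (r -0.22) and Il34 with the keratinocyte list (r 0.33, where 1 of 5 markers passed the count filter) did not pass either (adjusted permutation p 0.563 and 0.408). In all 9 of the 15 relations passed. Within groups 6 did, without those of Tnfrsf11a with the osteoclast list, Irf8 with the macrophage list and Lgr4 with the osteoblast list. Over all mice 1 passed without NGT mouse 2, 5 without T1D mouse 1 and 4 without Lira mouse 2.

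**Figure D5:**
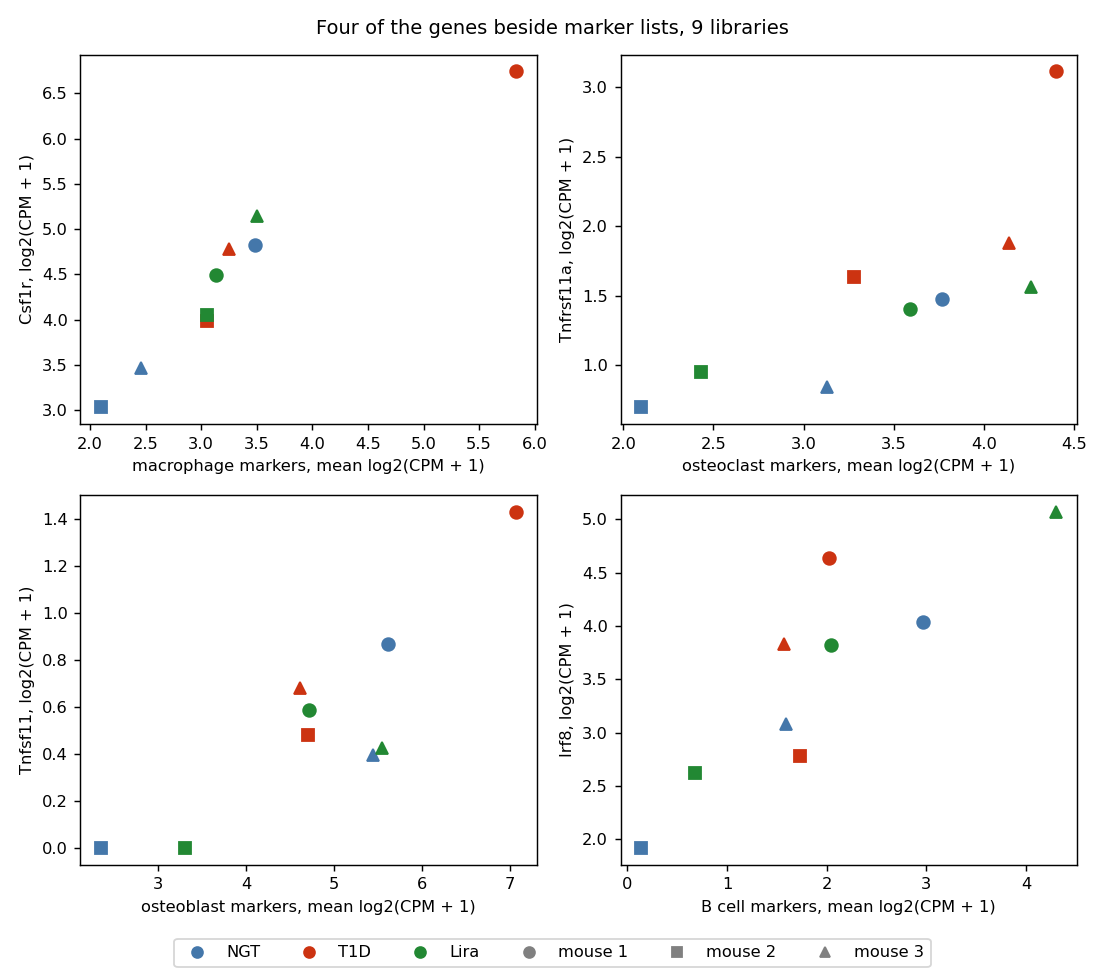
Level of 4 genes, as log2(CPM + 1), against the mean log2(CPM + 1) of a marker list in the 9 mice, colour for the group and symbol for the mouse number. Csf1r rises with the macrophage list without exception in rank (r 0.96), T1D mouse 1 is at the top right for Csf1r, Tnfrsf11a and Tnfsf11, and Lira mouse 3 is at the top right for Irf8.

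The genes whose pattern over the 9 mice was most like each member were taken from about 10411 genes with a mean of at least 5 CPM, as a description. They were Slc33a1 (r 0.986) and Mmp14, a membrane matrix metalloproteinase (0.974), for Tnfrsf11a, Man2b2 (0.984) and the Fc receptor gene Fcgr3 (0.982) for Csf1r, and Itgal (0.993) and Inpp5d (0.992), both genes of blood cells, for Irf8. For Tnfsf11 they were the gap junction gene Gja1 (0.956) and Cd302 (0.947), for Tnfrsf11b Scarb1 (0.932) and Kif3b (0.931), and for Lgr4 Enpp4 (0.989) and Cul5 (0.984). Csf1 was most like Hsd17b11 (0.977) and Il13ra1 (0.975), Il34 like Sestd1 (0.957) and Slc35f5 (0.935), Nfatc1 like Atxn2 (0.925), and Mitf like Mtpap (0.951) and Mknk2 (0.922).

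Downstream of RANK, the 35 genes of the signalling list, all tested, had 16 members higher in T1D than NGT, a median log2 difference of -0.02 (0.02 over all genes) and 0 called. By unadjusted p under 0.05 in edgeR 1 was higher (2.36% of all genes) and 1 lower (1.6%). Nfkbia, the NF-kB inhibitor that NF-kB itself induces, averaged 44.8 CPM in NGT, 79.2 in T1D and 54.9 in Lira, a log2 difference of 0.82 ± 0.22 for T1D against NGT (edgeR, unadjusted p 0.00539). Map2k6, a kinase of the p38 pathway also strong in muscle, averaged 26.5, 13.2 and 20 CPM, a difference of -1.01 ± 0.25 (edgeR, unadjusted p 0.0032). Src, which organises the ruffled border of osteoclasts, averaged 4.28, 8.52 and 5.83 CPM, a difference of 0.99 ± 0.54. All 3 had an adjusted p of 0.977 in edgeR's quasi-likelihood test.

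Behind the M-CSF receptor, 18 of 26 signalling genes were higher in T1D than NGT, with a median of 0.16, and 0 had an unadjusted edgeR p under 0.05. The 3 with the lowest p were Sdc1 (0.89 ± 0.45), a syndecan, the kinase Fyn (0.66 ± 0.36) and Sos1 (-0.38 ± 0.21), which links receptors to Ras. In the R-spondin and LGR4 list all 7 tested genes of 9 were higher in T1D, with a median of 0.89, and 0 had an unadjusted edgeR p under 0.05. Of these 7, 5 passed the filter on the NGT and T1D libraries alone. A gene near the filter can pass through the group where it is high. The count of 7 can therefore partly follow from the filter. The R-spondins, ligands of LGR4, were at low level. Rspo2 averaged 0.2 CPM in NGT, 1.48 in T1D and 0.587 in Lira, Rspo1 0.337, 0.877 and 0.252 CPM and Rspo3 2.1, 3.87 and 2.08 CPM. Of the cytokines that raise RANKL and the receptors through which cytokines and hormones do so, 12 of 16 tested were higher, with a median of 0.4. Of the 16, 14 passed the filter on the NGT and T1D libraries alone. The 3 with the lowest p were Tnfrsf1a (0.61 ± 0.38), Il1r1 (0.53 ± 0.36) and the vitamin D receptor gene Vdr (1.14 ± 1.01), none under 0.05 unadjusted in edgeR.

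Of the other factors that favour osteoclast fate, 11 of 12 tested were higher in T1D than NGT with a median log2 difference of 0.69, and 3 had an unadjusted edgeR p under 0.05 (2.36% of all genes were higher at that threshold), all subunits of AP-1, the partner of Nfatc1. Jund averaged 48.9 CPM in NGT, 93.1 in T1D and 62.9 in Lira (0.93 ± 0.31), Junb 6.85, 14.9 and 12.6 CPM (1.12 ± 0.38) and Fos 5.4, 12.1 and 10.7 CPM (1.16 ± 0.48). These are also early-response genes of many cell types, and none passed after adjustment (edgeR, adjusted p 0.977 for each). AP-1 subunits were not tested as a set. Of the factors that oppose the fate, 5 of 7 tested were higher, with a median of 0.24, 0 called and summed levels that overlapped (347 to 463 CPM in NGT and 367 to 412 CPM in T1D). The 2 that were lower, Nr4a1 (-0.36) and Bcl6 (-0.26), named after their values were seen, were the most abundant. Among the others Id3 averaged 11.9, 18.5 and 13 CPM (0.63 ± 0.27, edgeR unadjusted p 0.0438), Id2 5.39, 13.8 and 7.83 CPM (1.35 ± 0.63) and Rbpj 47.2, 59.6 and 49 CPM (0.34 ± 0.18).

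In Lira against T1D the medians of these lists were 0.11 for RANK signalling, 0.07 for M-CSF receptor signalling, -0.04 for the R-spondin and LGR4 list, -0.15 for the RANKL inducers, -0.1 for factors favouring the fate and -0.28 for factors opposing it, beside 0.04 over all genes, with 0 genes called in any of them. For Lira against NGT they were 0.1, 0.06, 0.35, 0.22, 0.76 and 0.13 in the same order, again beside 0.04 and with 0 called.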

How the data were processed

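Tibia RNA of 9 mice was sequenced as oligo(dT)-selected mRNA. The authors deposited 1 table with, for each library, estimated counts per gene (30.2% of values were not whole within 0.001) and FPKM, and the submitters' processing notes name the build mm9. How reads overlapping several genes were shared, and whether strand was used, is not given in the sources used here. The authors' group means were not used. 0 value columns lacked a sample.

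Estimated counts were rounded to whole numbers. Genes reaching 10 counts in 3 or more libraries entered the tests (13960), and edgeR 4.0.16 in R 4.3.3 fitted all 9 libraries with TMM scaling and the quasi-likelihood test. Calls needed a Benjamini-Hochberg adjusted p under 0.05 and a fold over 2. FPKM served for levels between genes and for limma 3.58.1 on log2(FPKM + 0.1). DESeq2 1.42.0, other scaling, no filter, the replicate block, the compared groups alone and leaving out each mouse were the alternatives. Ratios within mouse numbers were added after seeing the data. Permutation tests used scipy 1.17.1 and were two-sided and exact.

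The pairing check is the correlation of same-numbered mice. Every NGT and T1D pair exceeded 0.1 and was read as a pair, on the data alone since no source says what a number marks, whereas NGT and Lira (-0.291, 0.711 and -0.122) and T1D and Lira (-0.286, 0.608 and 0.246) did not.

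The members and lists were chosen with earlier results of these data known. Genes named beyond the 10 were the 2 most alike in pattern per member (1 of those for Nfatc1 is not reported here), the 3 of each pathway list with the lowest unadjusted p for T1D against NGT, and the marker with the highest mean FPKM of a list. Marker genes with no counts in a library are named as such and were chosen after their values were seen. On simulated counts with 200 changed genes, the fit recovered 112 at a 4-fold change and 176 at a 16-fold change. False calls numbered 3 and 5. A true 4-fold change could thus be missed.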

Additional observations from a re-analysis of the deposited data

How the results depend on the processing

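Under every alternative run, 0 of the 9 tested genes were called in any of the 3 comparisons. DESeq2 gave no adjusted p for any of the 9 in T1D against NGT, so it could call none there. Depth limits RANKL, RANK and OPG most, since each of these 3 genes had under 10 estimated counts in at least 1 library. Tnfrsf11a in T1D against NGT had a log2 fold change of 1.47 to 2.05 over the alternatives that kept all mice, with edgeR, DESeq2 or limma unadjusted p from 0.00193 to 0.035, and 1.15 to 2.54 when single mice were left out. Csf1r had 1.49 to 1.82 and 0.47 to 2.5. For Lira against T1D, Tnfrsf11a had -1.62 to -1.12 and, leaving out single mice, -1.77 to -0.65.

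Some differences changed sign, and the cause was not tested beyond the mouse left out. Tnfrsf11b became 0.11 for T1D against NGT, 0.36 for Lira against T1D and 0.47 for Lira against NGT with the replicate block, 0.05, 0.25 and 0.38 with the block and only the groups compared, and 0.12, 0.17 and 0.28 with limma on FPKM. Leaving out single mice its ranges were -1.31 to 1.55, -0.45 to 1.14 and -0.63 to 1.53. Il34 became 0.07 for T1D against NGT and -0.13 for Lira against T1D with library-size scaling. With limma Mitf was -0.02 and Irf8 -0.01 for Lira against T1D. Ranges without single mice that crossed 0 were, for T1D against NGT, -0.26 to 0.18 for Il34, -0.09 to 0.16 for Mitf and -0.16 to 0.01 for Nfatc1. For Lira against T1D they were -0.09 to 0.41 for Lgr4, -1.48 to 0.2 for Csf1r, -0.2 to 0.24 for Il34 and -0.66 to 0.83 for Irf8. For Lira against NGT they were -0.09 to 0.62 for Csf1 and -0.14 to 0.1 for Il34.

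The relations past the threshold numbered 9, with 6 under the replicate block and 1 to 8 without single mice. The replicate block changed no call between groups. The difference in the RANKL to OPG ratio kept its direction under every alternative run. For Lira against T1D it was -1.81 at a pseudocount of 0.1 CPM and -0.6 without T1D mouse 3. For T1D against NGT it was 1.24 at that pseudocount, 0.17 without NGT mouse 1 and 0.23 without T1D mouse 3, and for Lira against NGT -0.08 without NGT mouse 3.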
